A study of Mus musculus with 8 samples.

Results

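Slow-twitch and fast-twitch regions were compared within the muscle of 2 sections of control embryonic mouse diaphragm at E18.5. Muscle spots were ranked in each section by a score, log2((*Myh7* + *Myl2* + *Myl3* UMIs + 1)/(*Myh4* + *Mybpc2* + *Actn3* UMIs + 1)). Spots in the upper 25% of this score are called slow-rich and those in the lower 25% fast-rich. Section 1 gave 773 spots of each kind out of 3092 muscle spots, and section 2 gave 549 of each out of 2199. Together these are 2644 spots, 1322 slow-rich and 1322 fast-rich, of 5291 muscle spots in the control E18.5 sections and of 12771 spots under tissue in the series. The series holds 8 sections of diaphragm from control embryos and from embryos without CaV1.1 or without muscle β-catenin, and the 6 sections outside the E18.5 controls were not used here. According to the study's methods, a control embryo kept an active allele of the CaV1.1 gene and of the β-catenin gene, and came from crosses that also carried a CaV1.1 null allele or a muscle-driven HSA-Cre with floxed β-catenin. The labels say only "control", and the genotype of the single embryo, its sex and its litter are not given in the sources used here. Each section was fixed in formaldehyde, embedded in paraffin, cut at 5 µm and read on a Visium slide, with spots 55 µm wide at a spacing of 100 µm.

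Adult skeletal muscle is a mosaic of slow type I fibers, which use β-cardiac myosin (*Myh7*), the slow troponins and the calcium pump SERCA2, and of fast type II fibers, which use *Myh2*, *Myh1* or *Myh4*, the fast troponins and SERCA1. Before birth both kinds of fiber also contain the developmental myosins *Myh3* (embryonic) and *Myh8* (perinatal), and the adult fast myosins appear late. The diaphragm has to breathe at birth, and its fibers run from the ribs to the central tendon, with a myotendinous junction (MTJ) at each end and the neuromuscular junction (NMJ) near the middle. A Visium spot is wider than a fetal fiber, so a spot is a small region of several fibers with the vessels, nerve and connective tissue between them. Slow-rich and fast-rich describe the mixture in a spot and not single fibers. In such mixtures, more fibers of a kind and more RNA per fiber cannot be told apart.

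The sequences before the start sites of 4 genes that the results turn on are shown here, 250 bases each, from RefSeq promoters on GRCm38.p6 (plus strand, 5′ to 3′). *Tnnc1* and *Myh7b* had the largest fold changes toward slow-rich spots among sarcomere genes outside the score, and *Mybph* and *Mstn* were among the 12 genes with the largest fold change toward fast-rich spots at an average log2 CPM of 5 or more. Each of the 4 genes has 1 promoter in the table and lies on the plus strand. Capitals mark an E-box (CANNTG, read on both strands), the core sequence that myogenic bHLH factors recognise.
Tnnc1, chr14:31208062-31208311: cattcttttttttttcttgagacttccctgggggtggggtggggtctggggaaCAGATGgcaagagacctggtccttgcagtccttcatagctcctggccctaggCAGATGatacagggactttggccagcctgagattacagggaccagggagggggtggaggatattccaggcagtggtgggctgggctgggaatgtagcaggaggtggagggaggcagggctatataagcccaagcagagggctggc
Myh7b, chr2:155610993-155611242: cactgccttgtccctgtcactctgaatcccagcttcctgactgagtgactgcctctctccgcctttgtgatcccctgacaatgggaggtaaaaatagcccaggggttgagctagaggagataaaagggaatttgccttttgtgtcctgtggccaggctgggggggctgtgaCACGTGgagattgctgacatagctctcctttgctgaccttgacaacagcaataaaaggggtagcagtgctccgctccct
Mybph, chr1:134193198-134193447: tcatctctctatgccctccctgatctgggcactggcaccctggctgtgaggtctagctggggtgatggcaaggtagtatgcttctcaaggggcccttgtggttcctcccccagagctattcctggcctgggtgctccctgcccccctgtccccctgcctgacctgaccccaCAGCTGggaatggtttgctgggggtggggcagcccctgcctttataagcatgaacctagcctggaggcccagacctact
Mstn, chr1:53061390-53061639: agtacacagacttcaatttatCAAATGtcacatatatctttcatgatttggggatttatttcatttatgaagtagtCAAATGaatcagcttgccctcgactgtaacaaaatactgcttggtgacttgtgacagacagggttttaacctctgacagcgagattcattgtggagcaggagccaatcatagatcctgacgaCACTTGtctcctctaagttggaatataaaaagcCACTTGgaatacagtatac
The 250 bases held 2 E-boxes before *Tnnc1*, 1 before *Myh7b*, 1 before *Mybph* and 4 before *Mstn*. An E-box was present in 66.2% of the 32851 promoters of the table over the same length, so an E-box is common in such windows. The MEF3 motif TCAGGTT (3.49% of all promoters, both strands) and the MEF2 consensus (2.92%) had no match in the 4 windows.

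The 2 sections held 82859104 and 69837233 UMIs under tissue and a median of 22899.5 and 27184 UMIs per spot under tissue. Muscle spots were those with 1000 UMIs or more whose mean log-normalized value of 9 muscle genes (the structural *Ttn*, *Neb*, *Des* and *Actn2*, the calcium channel *Ryr1*, the actin *Acta1*, the light chains *Mylpf* and *Myl1*, and *Tnnt3*) lay above the Otsu threshold of the section. The fast-rich spots of section 1 ended at a score of -0.77, with the next spot outside also at -0.77, and its slow-rich spots began at 1.11, with the next spot outside just below it. In section 2 the last fast-rich spot and the next one outside were both at -0.25, and the border of the slow-rich spots was at 1.16 on both sides. The score is continuous, so these borders cut a range and not a gap between kinds of spot. Slow-rich spots were slightly deeper, with a median of 24843 and 28277 UMIs in sections 1 and 2 against 22495 and 26870 in fast-rich spots. *Ttn* and *Des* helped to choose the muscle spots, so their levels are a description and no check of the tissue. *Ttn* stood at 7774 and 6868 CPM in slow-rich and at 7474 and 7145 in fast-rich spots of sections 1 and 2, and *Des* at 7747 and 7768 and at 7244 and 7691. CPM here are UMIs of a gene summed over the spots of a group, divided by the total of that group and scaled as in edgeR with its TMM factor, so 1 CPM was 14.4 to 19.6 UMIs.

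Spots of the same kind lay next to each other. In section 1, 44.0% of the muscle neighbours of slow-rich spots were slow-rich and 11.1% fast-rich, and in section 2 the shares were 47.4% and 9.94%, where each kind makes up 25% of muscle spots. Fast-rich spots had 44.8% and 47.4% fast-rich neighbours. Moran's I of the score over neighbouring muscle spots was 0.412 in section 1 and 0.468 in section 2, as a description without a test. The slow genes and the fast genes of the score were hardly correlated with each other. Across muscle spots, Pearson's r between the summed levels of the 3 slow and the 3 fast genes (log1p of UMIs per 10000) was -0.02 over 3092 spots and 0.04 over 2199 spots, which share a library within each section.

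**Figure D1:**
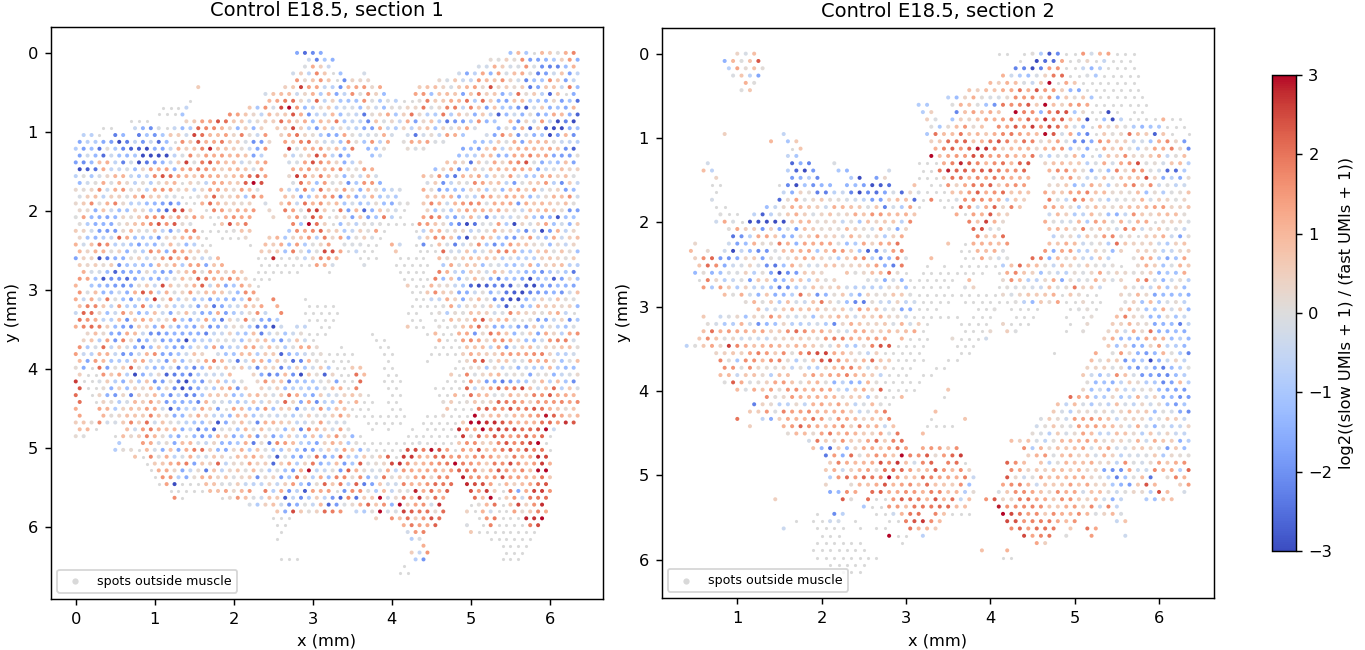
Map of the score over both control E18.5 sections, with axes in mm and each point a spot; color gives log2((slow UMIs + 1)/(fast UMIs + 1)) of muscle spots from -3 (blue, fast) to 3 (red, slow), and gray points are spots outside muscle. Red spots lie in patches beside other red spots and blue beside blue, with a Moran's I of 0.412 in section 1 and 0.468 in section 2.

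The position of slow-rich spots also differed from that of fast-rich spots. The median distance to the nearest spot outside muscle was 361 and 458 µm for slow-rich spots of sections 1 and 2 and 458 and 600.0 µm for fast-rich spots. Within 100 µm of other tissue lay 12.3% of slow-rich and 6.60% of fast-rich spots of section 1, but 9.29% of either kind in section 2. Pearson's r between score and distance was only -0.13 and -0.07. The MTJ region, made of the 15% of muscle spots richest in *Uchl1*, *Rxrg*, *Ankrd1* and *Col22a1*, took up 20.1% of slow-rich spots in section 1 (exact 95% interval 17.3% to 23.1%) and 18.8% in section 2 (15.6% to 22.3%). Among fast-rich spots its share was 6.99% (5.29% to 9.02%) and 9.65% (7.32% to 12.4%). The NMJ region, the 15% highest for 8 endplate genes, held 18.8% and 18.4% of slow-rich and 11.9% and 11.1% of fast-rich spots. Both junction regions were thus more frequent among slow-rich spots in both sections. The intervals cover counting error only, and neighbouring spots are not independent. Crural, costal and ventral muscle were not set apart here. For its E18.5 controls the study reports more type I than type IIb spots in crural muscle, and the reverse in costal muscle. It also describes these spots as randomly scattered, with no regionalization to be seen in the horizontal plane. The score used here had a Moran's I of 0.412 and 0.468 in sections 1 and 2. The clusters of the study and the score divide spots differently and were not compared. The study also reports a ventral costal cluster with preferential *Myh3*, *Nrap*, *Flnc* and *Csrp3*, genes that are given below. At E18.5 it further reports raised *Myh3* at the NMJ and at the MTJ, and a similar pattern for *Tnnt2*. The part of muscle region in the differences below was not tested.

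The 6 genes that made the score are given as a description, because their values chose the spots. Slow-rich spots held *Myh7* at 4019 and 4905 CPM in sections 1 and 2, and fast-rich spots at 661 and 1157. *Myl2*, the slow regulatory light chain, stood at 649 and 746 against 108 and 183, and *Myl3*, the slow essential light chain, at 264 and 322 against 50.04 and 88.4. *Myh4*, the myosin of type IIb fibers, stood at 103 and 156 in slow-rich and 235 and 352 in fast-rich spots. The fast myosin binding protein *Mybpc2* stood at 651 and 809 against 1074 and 1318, and the fast Z-disc protein *Actn3* at 707 and 819 against 1052 and 1234. The slow genes of the score therefore spanned a wider range than the fast ones, and *Myh7* was present in 99.7% of fast-rich spots of section 1 and in every one of section 2. When a gene was left out of the score and the spots were chosen again, the fold of slow-rich over fast-rich spots was 4.92 and 3.66 for *Myh7*, 5.54 and 4.01 for *Myl2* and 4.98 and 3.56 for *Myl3* in sections 1 and 2. Left out in the same way, *Myh4* stood at 0.535 and 0.546 times its fast-rich level, *Mybpc2* at 0.681 and 0.691 times and *Actn3* at 0.753 and 0.742 times. In spots outside muscle *Myh7* still reached 826 and 602 CPM and had a UMI in 99.2% and 98.5% of spots, against 648 and 1136 CPM in fast-rich spots on the same unscaled basis.

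For all other genes, UMIs were summed over the slow-rich and over the fast-rich spots of each section, and edgeR's quasi-likelihood F test was run on the 4 sums, blocked by section. Of 13008 genes tested, 865 (6.65%) passed a Benjamini-Hochberg adjusted p of 0.05, with 408 higher in slow-rich spots (3.14%) and 457 higher in fast-rich spots (3.51%). Of the 865 genes, 847 moved the same way in both sections, against 61.4% of all tested genes, but a test on both sections favours such genes. The fit leaves 1 residual degree of freedom and takes its spread mainly from all genes together (median prior degrees of freedom 14.6), and DESeq2 on the same sums called 122 genes. Without the section as a block no gene was called by edgeR, although 518 had an unadjusted p under 0.05. The same gene's slow-rich and fast-rich sums deviated together within a section, with a correlation of 0.879 over 9314 genes. Where the sums were scaled to the 9 muscle genes, the median log2 fold change of all genes moved from 0.00 to 0.19 and the split of calls became 3900 higher in slow-rich and 102 higher in fast-rich spots. Small differences in either direction are therefore relative to the total RNA of the spots. The 9 muscle genes were themselves not level between the groups. Their log2 fold changes ran from -0.36 for *Tnnt3* to 0.07 for *Actn2*, with a median of -0.15, so scaling to them is not neutral to the score. The background of each list below is the share of all genes called in that direction. Where it is not repeated, it is 3.14% for slow-rich and 3.51% for fast-rich spots. Without the NMJ and MTJ regions these shares were 2.23% and 1.92%, and 200 µm or more from other tissue 1.99% and 1.55%. The fit without those regions had infinite prior degrees of freedom, as had that in purer muscle and others named in the closing section. A call kept or lost in such a fit is therefore not a like comparison with the main fit. Groups are said not to overlap where both values of one kind exceeded both of the other. The share of all genes for which this held was not counted, and the pairing by section is ignored. Such statements describe the 4 values and add no support to a call.

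Slow sarcomere genes outside the score were higher in slow-rich spots. Of 13 members tested, 11 were called higher in slow-rich spots and 0 higher in fast-rich spots, against a background of 3.14% and 3.51% of all genes, and the median log2 fold change was 0.81 against 0.00 over all genes. The 3 slow troponins followed *Myh7*. *Tnnc1*, the troponin C of slow and cardiac muscle (GRCm38 chromosome 14:31208312-31211729), stood at 992 and 1046 CPM in the slow-rich spots of sections 1 and 2 and at 232 and 344 in the fast-rich spots. Both slow-rich values lay above both fast-rich values, and the gene was 3.60-fold higher (log2 fold change 1.85 with SE 0.08, adjusted p by edgeR 3.67e-10). *Tnni1*, the slow inhibitory subunit, stood at 1793.2 and 1794 against 696 and 816 and *Tnnt1*, the slow subunit that binds tropomyosin, at 3679.5 and 3827 against 1646 and 1919.9. The groups did not overlap for either, with log2 fold changes of 1.251 (SE 0.05) and 1.08 (SE 0.04) and an edgeR adjusted p of 2.39e-10 and 2.39e-10. *Myh7b*, a myosin of slow and cardiac muscle that carries a microRNA in an intron, was low throughout but had the second largest fold change among them. It stood at 48.8 and 55.4 CPM in slow-rich and 11.2 and 21.2 in fast-rich spots (log2 fold change 1.73 with SE 0.12, adjusted p by edgeR 1.22e-07). *Myl6b*, a slow essential light chain, stood at 74.0 and 91.6 against 26.4 and 38.6 CPM (log2 fold change 1.36, SE 0.07).

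*Ankrd2*, an ankyrin repeat protein of slow fibers, stood at 141 and 181 CPM in slow-rich spots and 61.2 and 89.1 in fast-rich spots (log2 fold change 1.11, SE 0.05). *Csrp3*, the muscle LIM protein of the Z-disc, stood at 1590.4 and 1437 against 838 and 889 (log2 fold change 0.81, SE 0.05). In both the slow-rich values exceeded the fast-rich ones in each section. Smaller differences passed the test for *Fhl1* (0.40), *Myoz2* (0.37), *Myom3* (0.27) and *Lmod2* (0.27), on the log2 scale, the last not called 200 µm or more from other tissue. The slow myosin binding protein *Mybpc1* did not pass, with 4354 and 4151 CPM in slow-rich and 4415 and 4269.8 in fast-rich spots, nor did *Smpx*, with 1397 and 1440.5 against 1450.2 and 1539. Tropomyosin *Tpm3* was not analysed here. The slow list kept its calls where junctions were left out: without the NMJ and MTJ regions 11 of 13 members were again higher in slow-rich spots (of 12570 genes 4.14% were called and 2.23% higher in slow-rich spots) and the median was 0.76. In muscle spots 200 µm or more from other tissue the log2 fold change was 1.89 for *Tnnc1*, 1.30 for *Tnni1* and 1.11 for *Tnnt1*, and 10 of the 13 members were called. Under that choice 3.54% of 12745 genes were called, 1.99% higher in slow-rich and 1.55% higher in fast-rich spots.

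**Figure D2:**
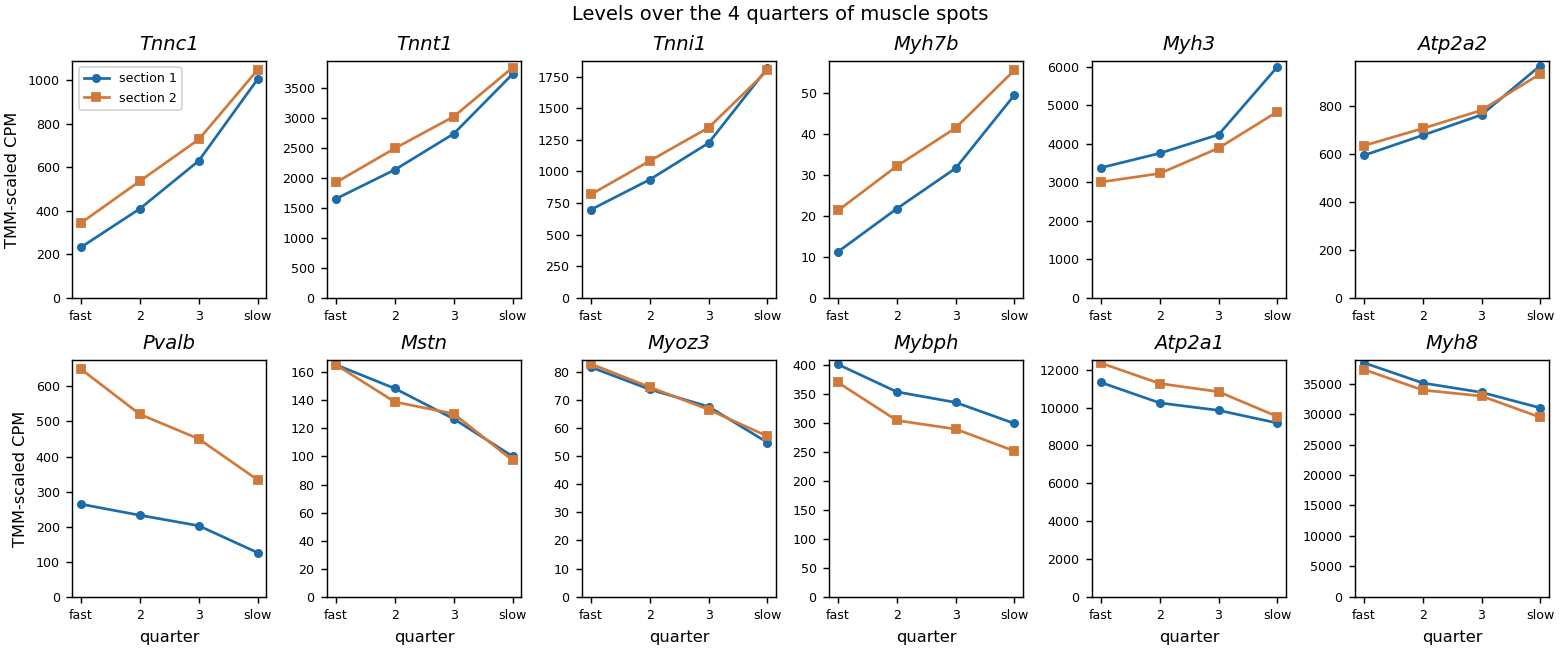
Levels of 12 genes outside the score over the 4 bins of muscle spots of 25% each, from fast-rich to slow-rich (x axis), in TMM-scaled CPM from 0 (y axis), for section 1 (circles) and section 2 (squares). *Tnnc1* went from 233 to 1005 CPM in section 1 and from 345 to 1048 in section 2, and *Pvalb* from 264 to 126 and from 649 to 334.

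The middle bins filled the range between the ends. *Tnnc1* stood at 233, 409.9, 630.0 and 1005 CPM over the 4 bins of section 1 from fast-rich to slow-rich, and at 345, 537, 728 and 1048 in section 2, with all bins scaled together. Such a steady rise in both sections was found for 10 of the 13 slow sarcomere genes, and in 238 (1.83%) of all 13008 genes. A steady fall in both sections was found for 6 of the 13 fast sarcomere genes and in 263 (2.02%) of all genes. Since the bins are ordered by the score, this describes the grade of the difference and is no separate test.

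Fast sarcomere genes outside the score differed less than the slow ones, and not all in the same direction. Of 13 tested, 8 were higher in fast-rich spots (background 3.51%) and 2 higher in slow-rich spots (background 3.14%), with a median log2 fold change of -0.17. Scaled to the 9 muscle genes this median was 0.01, where that of all genes was 0.19. *Myoz3*, the calsarcin of fast Z-discs, stood at 54.1 and 56.9 CPM in slow-rich and 81.4 and 82.6 in fast-rich spots (log2 fold change -0.56 with SE 0.06, adjusted p by edgeR 6.45e-06). *Mybph*, a relative of the myosin binding proteins, stood at 296 and 251 against 400.4 and 369.5 (-0.50, SE 0.05, edgeR adjusted p = 3.40e-06). Neither gene overlapped between the groups. *Myoz1*, the other calsarcin of fast fibers, stood at 1998 and 2161 against 2591 and 2841 (-0.38, SE 0.04). The fast troponins were abundant in all spots: *Tnni2* stood at 2077 and 2329.8 CPM in slow-rich and 2598 and 2879 in fast-rich spots, a log2 fold change of -0.31. *Tnnc2* stood at 17372 and 16124 against 20583 and 19699, a log2 fold change of -0.27. These 2 fast troponins differed by 1.20-fold and 1.24-fold and the 3 slow ones by 2.11-fold to 3.60-fold, while *Tnnt3*, the fast troponin T, was used to choose muscle spots and stood at 13232 and 14114 CPM in slow-rich and 17036 and 17977 in fast-rich spots. *Tpm1* (-0.23), *Mylk2* (-0.17) and *Myom2* (-0.16) were also higher in fast-rich spots, but *Mylk2* and *Myom2* were called neither without the NMJ and MTJ regions nor 200 µm or more from other tissue. In muscle 200 µm or more from other tissue, *Tnni2* (-0.28), *Tnnc2* (-0.24) and *Tpm1* (-0.21) were no longer called, and without the NMJ and MTJ regions *Tnnc2* (-0.20) and *Tpm1* (-0.18) were not.

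The adult fast myosins did not move together. *Myh2*, the myosin of type IIa fibers (GRCm38 chromosome 11:67171027-67197517), was higher in slow-rich spots, at 45.5 and 76.5 CPM against 24.6 and 33.9 (log2 fold change 1.04 with SE 0.08, adjusted p by edgeR 2.20e-07). Both of its slow-rich values lay above both fast-rich values. *Myh1*, of type IIx fibers, stood at 1251 and 1759.8 CPM in slow-rich and 1139.7 and 1884 in fast-rich spots, with 0.13 in section 1 and -0.10 in section 2 on the log2 scale, and did not pass the test (edgeR adjusted p = 0.905). *Myh4*, which the score used, pointed the other way. *Smtnl1*, a smoothelin-like protein that inhibits myosin phosphatase, was the other member of the fast list higher in slow-rich spots (0.20, SE 0.04), a call lost 200 µm or more from other tissue. The myosin genes of chromosome 11 and the pair *Myh6* and *Myh7* are close paralogs, and how far their probes separate them was not tested. *Myh6*, the α-cardiac myosin, stood at 9.64 and 7.83 CPM in slow-rich and 2.58 and 2.75 in fast-rich spots (log2 fold change 1.72, SE 0.18). Of 8 heart genes looked at it was the only 1 called, and *Nppa*, *Nppb* and *Nkx2-5* were too low to be tested.

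Developmental sarcomere genes split between the 2 fetal myosins. *Myh3*, the embryonic myosin, stood at 5922 and 4822 CPM in slow-rich and 3368 and 2999.6 in fast-rich spots, 1.68-fold higher (log2 fold change 0.75 with SE 0.04, adjusted p by edgeR 3.60e-09). *Myh8*, the perinatal myosin, stood at 30629 and 29403 against 38338 and 37261, lower in slow-rich spots by 0.33 on the log2 scale (SE 0.03, edgeR adjusted p = 1.38e-06). Neither gene's groups overlapped. In all, 5 of 7 tested members were higher in slow-rich spots and 1 higher in fast-rich spots, with a median of 0.30. The others called were *Nrap*, a protein of assembling myofibrils (0.45), cardiac troponin *Tnnt2* (0.35), filamin C *Flnc* (0.30) and the embryonic light chain *Myl4* (0.22). *Tnnt2* and *Myl4* were uneven between the embryos, with log2 fold changes of 0.49 and 0.35 in section 1 and 0.20 and 0.09 in section 2. Without the NMJ and MTJ regions 4 of the 7 were higher in slow-rich and 1 higher in fast-rich spots, with a median of 0.19, and *Myl4* was not called. In muscle 200 µm or more from other tissue neither *Myl4* nor *Myh8* (-0.31) was called.

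**Figure D3:**
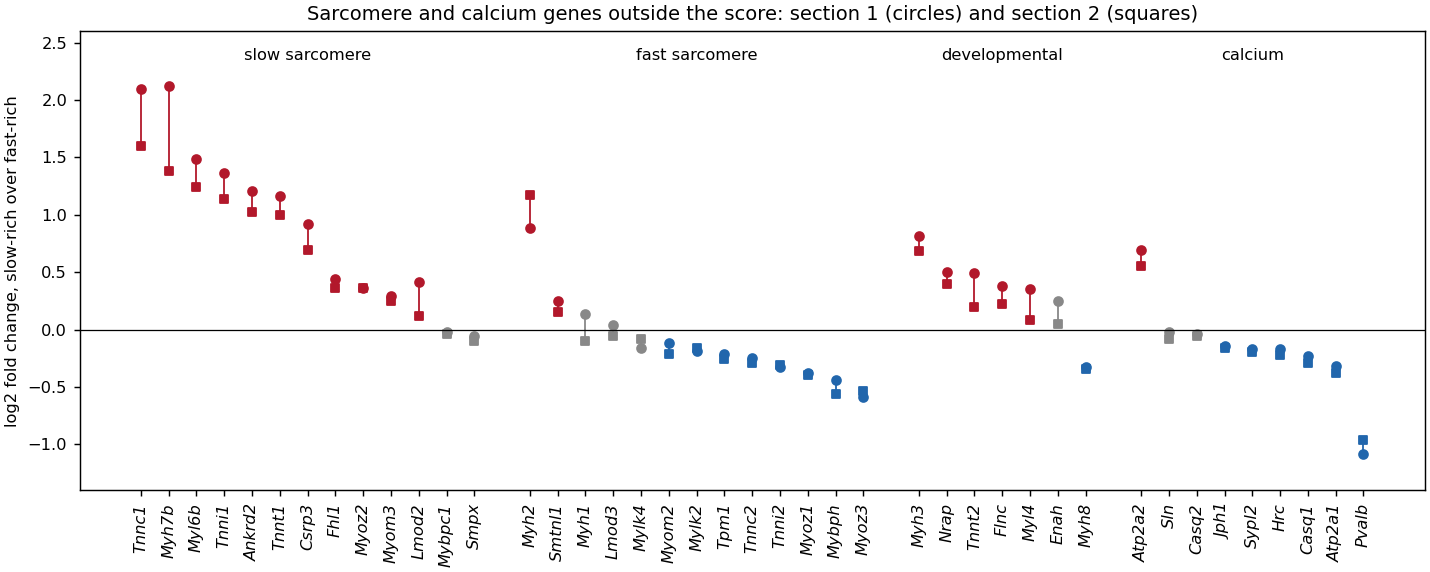
Log2 fold change of slow-rich over fast-rich spots (y axis) for sarcomere and calcium genes outside the score, in section 1 (circles) and section 2 (squares), joined by a line. Red genes were called higher in slow-rich spots, blue genes higher in fast-rich spots and gray genes did not pass the test. *Tnnc1* has 2.10 and 1.60, *Myh2* 0.89 and 1.17 and *Pvalb* -1.08 and -0.96.

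Calcium handling differed at the pump and the buffers. SERCA pumps return calcium to the sarcoplasmic reticulum, and parvalbumin binds calcium in the cytosol of the fastest fibers. *Atp2a2*, the slow and cardiac SERCA2, stood at 957 and 933 CPM in slow-rich and 593 and 634 in fast-rich spots (by 0.62 on the log2 scale, SE 0.04, edgeR adjusted p = 1.47e-07). *Atp2a1*, the fast SERCA1, stood at 9065 and 9504 against 11301 and 12332 (-0.35, SE 0.03, edgeR adjusted p = 4.14e-06). The 2 pumps thus moved in opposite directions in each section. *Pvalb*, parvalbumin (GRCm38 chromosome 15:78191114-78206400), stood at 124 and 333 CPM in slow-rich and 263 and 648 in fast-rich spots. Its groups overlapped, because section 2 held more of it than section 1 in either kind of spot, yet within each section fast-rich spots had the excess. The log2 fold change was -1.02 (SE 0.05, edgeR adjusted p = 1.02e-09), with -1.08 in section 1 and -0.96 in section 2. The fast calsequestrin *Casq1* stood at 2918 and 2729.6 against 3422 and 3341 (-0.26), and the slow and cardiac *Casq2* at 2188 and 1747 against 2243 and 1817, which did not pass (edgeR adjusted p = 0.587). Sarcolipin *Sln*, which inhibits SERCA, stood at 969 and 909 in slow-rich and 983 and 965 in fast-rich spots and did not pass either. Of 19 members tested, 1 was higher in slow-rich and 6 higher in fast-rich spots, among them *Hrc* (-0.20), *Sypl2* (-0.18) and *Jph1* (-0.15). The median of -0.05 turned to 0.13 when scaled to the 9 muscle genes, where the median of all genes was 0.19. In muscle 200 µm or more from other tissue *Pvalb* was the only one of the 6 still called, with *Atp2a1* at -0.31 and *Casq1* at -0.24.

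Glycolytic and glycogen genes were higher in fast-rich spots. Of 24 tested, 16 were called higher in fast-rich spots (background 3.51%) and 0 higher in slow-rich spots, and the median log2 fold change was -0.27. Genes of glycogen breakdown were among them. *Phkg1*, the catalytic subunit of phosphorylase kinase in muscle, stood at 115 and 125 CPM in slow-rich and 173 and 182 in fast-rich spots (-0.57, SE 0.05, edgeR adjusted p = 9.08e-07). Its regulatory subunit *Phka1* stood at 33.6 and 39.1 against 46.3 and 56.2 (-0.49), and the muscle phosphorylase *Pygm* at 2463 and 2510.0 against 3215 and 3222 (-0.37, edgeR adjusted p = 5.99e-06). None of these groups overlapped. The gluconeogenic *Fbp2* (-0.57), *Gpd1* (-0.45) and phosphoglucomutase *Pgm1* (-0.39) followed. Without the NMJ and MTJ regions 10 of 24 were still higher in fast-rich spots (1.92% of genes) and the median was -0.19, and 8 were called 200 µm or more from other tissue. *Ldha*, *Ldhb* and *Tpi1* were not analysed here. Muscle creatine kinase *Ckm* stood at 18098 and 16893 CPM in slow-rich and 21894 and 20790.0 in fast-rich spots (-0.29), and its mitochondrial form *Ckmt2* at 1961 and 1955 against 2278 and 2290.2 (-0.22). The brain form *Ckb* was higher in slow-rich spots (0.35, SE 0.09), and of 10 genes of creatine and adenine nucleotide metabolism 1 was higher in slow-rich and 4 higher in fast-rich spots. In muscle 200 µm or more from other tissue *Ckm*, *Ckmt2* and *Ckb* were not called.

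Oxidative genes were not higher in slow-rich spots as a group. Of 80 respiratory chain genes tested, 28 were higher in fast-rich and 0 higher in slow-rich spots, with a median of -0.13. Of 20 citric acid cycle genes 10 were higher in fast-rich and 0 in slow-rich spots (median -0.15, *Idh3a* -0.24). The differences were small: *Cox7a1*, the muscle isoform of a cytochrome oxidase subunit, stood at 710.2 and 704 CPM in slow-rich and 895 and 908 in fast-rich spots (-0.35, SE 0.04). *Cox4i2*, an isoform of another subunit, stood at 9.64 and 9.52 against 18.54 and 13.3 (-0.74, SE 0.12). These counts hung on the test, the scaling and the spots compared. DESeq2 on the same sums called 2 of the 80 and 1 of the 20 higher in fast-rich spots, with medians of -0.13 and -0.15. Over all 5433 genes with an adjusted p it called 56 in that direction. Without the NMJ and MTJ regions 3 of the 80 respiratory chain genes were higher in fast-rich spots, where 1.92% of all genes were. Of the 20 citric acid cycle genes 0 were higher in fast-rich spots under that choice. Scaled to the 9 muscle genes the medians of the 2 lists were 0.06 and 0.04, still below the median of 0.19 over all genes. In that scaling 2 of the 80 and 0 of the 20 were called higher in fast-rich spots, and 11 and 4 higher in slow-rich spots. Over all 13008 genes 102 were called higher in fast-rich and 3900 higher in slow-rich spots. In muscle 200 µm or more from other tissue 2 of the 80 and 0 of the 20 were called higher in fast-rich spots, where 1.55% of all genes were. The medians of the 2 lists moved less than the counts there, to -0.10 and -0.12 from -0.13 and -0.15. Without the NMJ and MTJ regions they were -0.05 and -0.06. Fatty acid genes had a median of -0.11, and of 0.08 when scaled to the 9 muscle genes, where all genes had 0.19. They were mixed, with 3 of 26 higher in slow-rich and 9 higher in fast-rich spots. Those higher in slow-rich spots were myoglobin *Mb*, which stores oxygen, at 92.0 and 166 CPM against 52.1 and 114 (0.67, SE 0.06, edgeR adjusted p = 2.92e-06), the uncoupling protein *Ucp2* (0.57) and the fatty acid carrier *Fabp3* (0.20), the last not called 200 µm or more from other tissue. Both sections had more *Mb* in slow-rich spots, while section 2 had more than section 1 in either. *Hadh* (-0.23), the fatty acid receptor *Cd36* (-0.23) and *Ucp3* (-0.53) were among the 9, none of which was called without the NMJ and MTJ regions.

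Both ends of the score were then taken apart, a comparison added after the data had been seen. Spots were ranked by the 3 slow genes alone (UMIs per 10000), and separately by the 3 fast genes alone, and the highest and lowest 25% were summed as before. The slow troponins differed mainly with the slow genes: the log2 fold change of *Tnnc1* was 2.02 between high and low slow genes and 0.07 between low and high fast genes, that of *Tnni1* 1.31 and 0.25 and that of *Tnnt1* 1.30 and -0.13. *Pvalb* had -0.18 and -2.05, *Mstn* -0.09 and -1.59 and *Phkg1* 0.05 and -1.42 in the same order. The 2 rankings run in opposite senses, from low to high slow genes and from high to low fast genes. The metabolic lists thus had higher medians in spots high for either set. Respiratory chain genes had a median of 0.21 toward spots with high slow genes and of -0.72 toward spots with low fast genes, and glycolytic genes of 0.06 and -0.80. The 9 genes that chose the muscle spots were also higher in spots high for either set. With the fast genes they moved unevenly, from -0.39 for *Des* to -0.93 for *Tnnt3*, so they are no plain measure of muscle content. The median log2 fold change of the 9 muscle genes was 0.22 from low to high slow genes and -0.77 from high to low fast genes, against -0.15 with the score. Tendon genes were lower in spots high for either set, with medians of -0.61 and 1.56 in the same order. The part of muscle content and of other tissue in these differences was not tested.

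**Figure D4:**
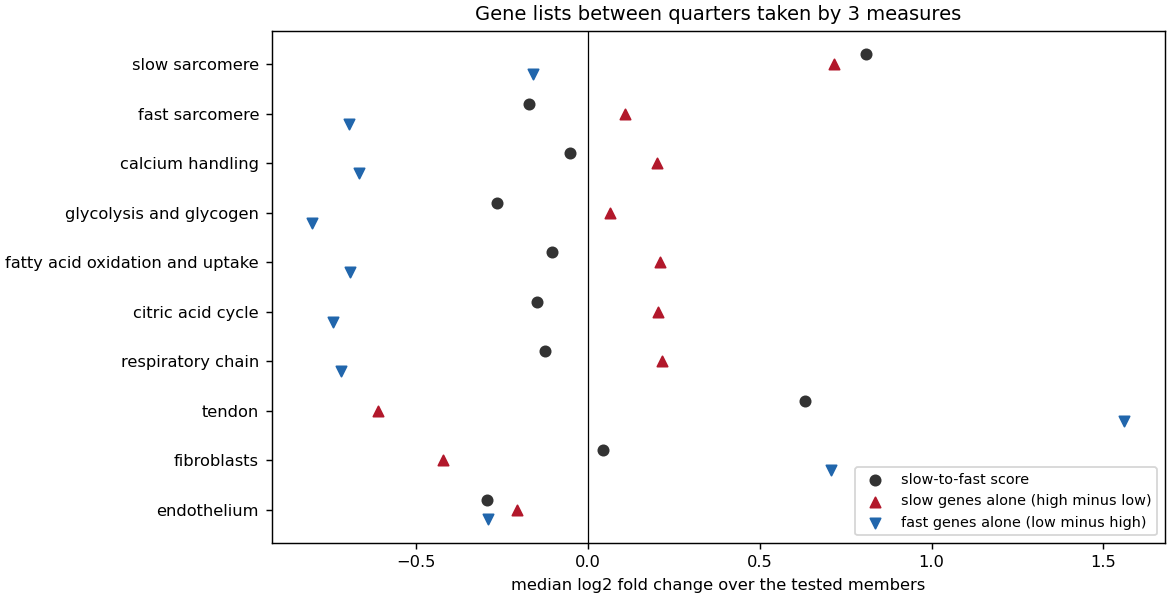
Median log2 fold change over the tested members of 10 gene lists (x axis) between spots chosen by the slow-to-fast score (circles), by the slow genes alone (upward triangles, high minus low) and by the fast genes alone (downward triangles, low minus high). Slow sarcomere genes have 0.81, 0.72 and -0.16, and respiratory chain genes -0.13, 0.21 and -0.72.

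Among transcription factors and signaling genes known to set fiber type, the count higher in slow-rich spots was close to the background. DESeq2 called 0 of them higher in slow-rich and 1 higher in fast-rich spots. Over all 5433 genes with an adjusted p it called 66 and 56. With edgeR, 2 of 42 tested were higher in slow-rich and 7 higher in fast-rich spots. The background was 3.14% and 3.51% of all genes, and the median of the list was 0.00. The estrogen-related receptors *Esrrb* and *Esrrg*, nuclear receptors that drive oxidative and slow muscle genes, were the 2 higher in slow-rich spots. *Esrrb* stood at 11.97 and 14.9 CPM against 6.66 and 6.99 (log2 fold change 0.96 with SE 0.13, adjusted p by edgeR 1.35e-04) and *Esrrg* at 28.1 and 25.4 against 18.8 and 19.8 (0.48, SE 0.09). Their groups did not overlap, although *Esrrb* stood at a low level and DESeq2 gave neither an adjusted p. Myostatin *Mstn*, the secreted inhibitor of muscle growth, had the largest difference of the list toward fast-rich spots, at 98.9 and 97.1 CPM in slow-rich and 165 and 165 in fast-rich spots (-0.75, SE 0.05, edgeR adjusted p = 5.17e-08). The factor *Mafa*, which activates type IIb genes, stood at 196 and 175 against 222 and 216 (-0.24), and the kinase subunit *Prkag3* of fast fibers at 57.5 and 57.2 against 65.2 and 70.9 (-0.24), and neither was called 200 µm or more from other tissue. The coactivator PGC-1α, *Ppargc1a*, known as a driver of mitochondrial genes, was also higher in fast-rich spots (-0.29, SE 0.06), and was not called without the NMJ and MTJ regions (-0.18).

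Other genes outside the lists were among the 12 with the largest difference toward fast-rich spots. *Ddit4l*, an inhibitor of mTOR signaling, stood at 72.5 and 92.3 CPM in slow-rich and 133 and 155 in fast-rich spots (-0.81, SE 0.05, edgeR adjusted p = 5.19e-08). *Chrna9*, an acetylcholine receptor subunit, stood at 36.4 and 40.3 against 64.6 and 65.4 (-0.77, SE 0.06). The ligand *Wnt4* stood at 65.4 and 52.8 against 97.3 and 85.3 (-0.63, SE 0.06). In each of the 3 genes both fast-rich values exceeded both slow-rich values. The phospholipase *Plcd4* (-0.54), the lipin *Lpin1* (-0.51), the glucose-6-phosphate transporter *Slc37a4* (-0.51) and the connexin of arterial endothelium *Gja4* (-0.61) complete the 12 largest in this direction. Ion channels and pumps went both ways, with 4 of 19 higher in slow-rich and 6 higher in fast-rich spots. The sodium channel subunit *Scn3b* stood at 68.7 and 51.0 CPM in slow-rich and 36.4 and 35.6 in fast-rich spots (0.73), but at 0.07 on the log2 scale without the NMJ and MTJ regions. The potassium channel *Kcnc1* (0.59) and the sodium pump subunit *Atp1b1* (0.21) were also higher in slow-rich spots, and *Kcnc1* was not called without those regions either. The pump subunit *Atp1b2* (-0.40) and the potassium channel *Kcna7* (-0.46) were higher in fast-rich spots.

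Junction and tendon genes were among those higher in slow-rich spots. Of 9 MTJ genes 6 were higher in slow-rich and 1 higher in fast-rich spots, and of 17 NMJ genes 6 and 0. Without the NMJ and MTJ regions, which such genes define, 3 of the 9 and 2 of the 17 were higher in slow-rich spots, and the medians went from 0.27 to 0.13 and from 0.27 to 0.04. The MTJ collagen *Col22a1* stood at 82.7 and 91.5 CPM in slow-rich and 22.5 and 39.2 in fast-rich spots (1.53, SE 0.10, edgeR adjusted p = 7.41e-08), followed by *Tigd4* (1.46), *Uchl1* (1.05), *Ankrd1* (0.94) and *Xirp1* (0.27). *Rxrg*, a retinoid receptor among the genes that set the MTJ region, went the other way (-0.23). The fetal acetylcholine receptor subunit *Chrng* (0.50), the receptor subunit *Chrnd* (0.44) and the endplate factor *Etv5* (0.46) were higher in slow-rich spots. All 8 tendon genes tested were higher in slow-rich spots, with a sum of 602 and 784 CPM in slow-rich spots of sections 1 and 2 and 362 and 505 in fast-rich spots. Tenomodulin *Tnmd* stood at 80.0 and 106 CPM against 27.4 and 51.0 (1.28, SE 0.08), and *Fmod* at 72.3 and 133 against 33.7 and 70.7 (0.996). Without the NMJ and MTJ regions *Col22a1*, a gene that sets the MTJ region, had a log2 fold change of 0.34 and was not called, *Tigd4* stood at -0.28, *Tnmd* stood at 0.53 and 5 of the 8 tendon genes were still higher in slow-rich spots. Ranked by the slow genes alone (high minus low), the medians of the tendon, MTJ and NMJ lists were -0.61, -0.02 and 0.16. Ranked by the fast genes alone (low minus high), they were 1.56, 0.77 and 0.34. The part of tendon and junction tissue in the other differences was not tested beyond the values without those regions.

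Other tissue differed too. Endothelial genes were lower in slow-rich spots, 8 of 10 called higher in fast-rich spots and summing to 965 and 1007 CPM in slow-rich and 1294 and 1103 in fast-rich spots of sections 1 and 2. Of the 10, 1 was called when scaled to the 9 muscle genes (median -0.11 against -0.30, with 0.19 over all genes in that scaling). In purer muscle 2 were called (median -0.14), 5 without the NMJ and MTJ regions and 0 with DESeq2, which gave *Emcn* no adjusted p. Fewer genes of any kind were called higher in fast-rich spots under these choices. They were 102 of 13008 when scaled to the 9 muscle genes and 264 of 11976 in purer muscle. Without the NMJ and MTJ regions they were 241 of 12570, and with DESeq2 56 of 5433. In muscle 200 µm or more from other tissue 7 of the 10 endothelial genes were called higher in fast-rich spots (median -0.27, background 1.55%). Without spots holding 10 or more liver UMIs per 10000 all 10 were (median -0.30), where 537 of 12939 genes were. In the main comparison *Emcn*, endomucin, had -0.59 and the claudin *Cldn5* -0.39. Liver genes were all 8 called higher in slow-rich spots, but were present in section 1 only: they summed to 618 CPM in its slow-rich and 210.5 in its fast-rich spots, and to 1.94 and 2.19 CPM in section 2. *Alb*, serum albumin, stood at 324 CPM in slow-rich and 107 CPM in fast-rich spots of section 1 and at 0 UMIs in the slow-rich spots of section 2, so its call (log2 fold change 1.60) rests on 1 section. In section 1, 10.9% of slow-rich and 3.49% of fast-rich spots held 10 or more liver UMIs per 10000. When these spots were left out and the groups chosen again, the log2 fold change of *Tnnc1* was 1.87, that of *Pvalb* -0.98 and 1014 genes were called.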

How the data were processed

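Transcripts were read by Visium with probes on FFPE sections. The authors aligned and counted with Space Ranger (2.0.1 in the matrix header, mm10), and deposited raw UMI counts per gene and spot for 19465 genes. Spots with 1000 UMIs or more were kept, which left 3460 of 3478 and 2525 of 2527 spots under tissue. Spots are regions, not cells or replicates, and no doublet caller was run. Both sections, 1 per embryo, use the same barcode set of the slide, and 2153 barcodes occur in both. Muscle spots, score, slow-rich and fast-rich spots were defined per section as given above. UMIs were summed per section and group, and 4 sums were fitted with edgeR 4.0.16 (R 4.3.3, TMM, filterByExpr, quasi-likelihood F test, section as block). The 15 genes of the rule (6 in the score, 9 for muscle) stayed in the fit but out of the Benjamini-Hochberg adjustment. Pairing is physical, since both groups come from the same section (correlation of deviations 0.879), and without the block 0 genes were called. Named genes were all tested members of the sarcomere and calcium lists, the 12 called genes with the largest fold change in each direction (average log2 CPM of 5 or more, same direction in both sections), and up to 6 called members of the other lists with those called against their list. The spots, lists and comparisons were chosen with earlier results of these data known. Gene positions are from the GENCODE annotation of GRCm38. DESeq2 1.42.0 and other spot choices were alternatives, and the fit was tested on simulated data. Some genes that meet the rule for named genes are not reported here.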

Additional observations from a re-analysis of the deposited data

How the results depend on the processing

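The 865 calls became 122 with DESeq2 (66 higher in slow-rich and 56 higher in fast-rich spots, 5433 genes with an adjusted p), 1344 with all 4 score bins in the fit, 4002 scaled to the 9 muscle genes, 1502 with *Myh7* and *Myh4* alone as the score, 529 in purer muscle, 521 without the NMJ and MTJ regions, and 451 in muscle 200 µm or more from other tissue, an alternative chosen after seeing the data. Without the section as a replicate block the count was 0, with 518 genes at an unadjusted p under 0.05. The cause of these changes was not tested. The other alternatives of this comparison gave 618 to 1219 calls. The separate rankings by the slow genes alone and by the fast genes alone, which also split spots by the level of the 9 muscle genes, called 2494 and 5532. Some fits had infinite prior degrees of freedom (purer muscle, thinned UMIs, without junction regions, without liver spots, fast genes alone), so their adjusted p cannot be set beside the others. With 1 section left out no residual degree of freedom remained, so there was no test.

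Of 1460 tested values of 92 named genes under 16 alternatives, 1234 kept direction and side of the threshold, 204 were no longer called, 3 became called and 19 changed sign. Scaled to the 9 muscle genes, *Mybpc1* had 0.15, *Smpx* 0.11, *Mylk2* 0.011, *Myom2* 0.021, *Casq2* 0.14, *Sln* 0.13, *Sypl2* 0.0041 and *Jph1* 0.032 on the log2 scale. All of these lay below the median of 0.19 over all genes in that scaling. In purer muscle *Mybpc1* had 0.036, *Casq2* 0.0062 and *Sln* 0.031. Without the NMJ and MTJ regions *Mybpc1* had 0.029, *Sln* 0.046, *Myh1* -0.040 and *Tigd4* -0.28. With the upper and lower 50% of spots *Mybpc1* had 0.0034 and *Myh1* -0.024, and *Myh1* had -0.00608 without the block and -0.032 at 200 µm or more. With a section left out, values without a test, *Alb* ran from -1.76 without section 1 to 1.61 without section 2. DESeq2 called 54 of the 87 called genes among them. It gave no adjusted p for 12 (*Fbp2*, *Ucp3*, *Cox4i2*, *Ckb*, *Esrrb*, *Esrrg*, *Kcnc1*, *Kcna7*, *Tigd4*, *Emcn*, *Myh6* and *Megf10*), and did not call *Lmod2*, *Mylk2*, *Myom2*, *Smtnl1*, *Myl4*, *Hrc*, *Sypl2*, *Jph1*, *Fabp3*, *Hadh*, *Cd36*, *Ppargc1a*, *Mafa*, *Prkag3*, *Atp1b1*, *Ankrd1*, *Rxrg*, *Xirp1*, *Cldn5*, *Alb* and *Cdk1*. Depth was not limiting for abundant genes, but genes near 10 CPM, such as *Esrrb*, rest on far fewer UMIs than those.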

Other observations

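The remaining lists gave few calls. Of 12 genes of myogenic factors and fusion, 1 was higher in slow-rich spots, the satellite cell receptor *Megf10* (log2 fold change 0.33), and of 17 proliferation genes 1, the kinase *Cdk1* (0.28), with medians of 0.08 and 0.15. Of 5 genes that the study used for type I or IIb fibers and that are not in the score, 3 were higher in slow-rich and 2 in fast-rich spots. The study chose them on these samples, so they are no independent evidence. Among other cells, 0 of 4 erythrocyte genes, 1 of 6 cartilage and bone genes (higher in slow-rich spots), 2 of 7 smooth muscle genes (higher in fast-rich spots), 0 of 8 mesothelial genes, 2 of 8 macrophage genes and 1 of 2 adipocyte genes (both higher in fast-rich spots) were called. Of 10 fibroblast genes 3 were higher in slow-rich and 1 in fast-rich spots, and of 10 Schwann cell and nerve genes 1 and 1. Their part in the other differences was not tested.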
